A study of Mus musculus with 6 samples.

Results

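The genes described here build the perineuronal net, the lattice of proteoglycans that wraps the cell body and dendrites of certain neurons in the cortex, together with the tenascins and a phosphatase that bind to it. They were taken by symbol, with no threshold on a measured value: 10 of the 23366 genes in the table, namely the lecticans Acan, Bcan, Ncan and Vcan, the link proteins Hapln1, Hapln2 and Hapln4, the tenascins Tnr and Tnc, and Ptprz1. RNA of frontal cortex was sequenced from 3 microglia-depleted mice at day 10 post depletion (A4, A5 and A6) and from 3 littermate control mice (A1, A2 and A3), all adult and on a C57BL/6 background. The genotype was CX3CR1-CreERT2+/- iDTR+/- in depleted mice, where iDTR is a diphtheria toxin receptor gene that Cre switches on, and CX3CR1-CreERT2+/- alone in control mice. Mice of both genotypes received tamoxifen, and diphtheria toxin was then given to ablate cells that had expressed Cre under the CX3CR1 promoter. Other CX3CR1-expressing macrophages carry the receptor as well unless they are replaced before the toxin is given, and the study describes microglia as having repopulated the brain by this time. Whether the control mice also received toxin is not given in the sources used here, nor is the age of the mice beyond adult and matched, so that toxin and depletion cannot be told apart.

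In a perineuronal net, long hyaluronan chains extend from the neuronal surface, lecticans attach to them along their length, link proteins lock this attachment, and tenascin-R ties the far ends of the lecticans together. The lecticans carry chondroitin sulfate chains, which give the net its negative charge and bind signalling molecules. Nets are densest around fast-spiking parvalbumin interneurons, they form as critical periods close, and microglia are known to take part in remodelling them. The same proteins also occur in the looser matrix between cells, where astrocytes and cells of the oligodendrocyte lineage make much of the brevican, neurocan, versican and phosphacan. Each lectican gene has a link protein gene as its neighbour in the mouse genome: in the RefSeq annotation 0 protein-coding genes lie between Bcan and Hapln2 on chromosome 3, Ncan and Hapln4 on chromosome 8, Vcan and Hapln1 on chromosome 13, or Acan and Hapln3 on chromosome 7.

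In the depleted mice, Bcan and Hapln4 were lower and Acan was higher in each mouse than in any control mouse, and the other 7 genes overlapped between the groups. Among all genes tested, 9.38% were lower and 8.21% higher in this way. Acan lay apart only narrowly, at a low level with few fragments, as described below. The promoters of Bcan and Acan are shown because these genes lay apart in opposite directions, and Hapln4 is named only. The sequences are the 250 bases before the start site in RefSeq, on GRCm38.p6, at chr3:88000357-88000606 on the minus strand for Bcan and at chr7:79052976-79053225 on the plus strand for Acan, written 5′ to 3′ with each match to the GC box GGGCGG, on either strand, in capitals:
Bcan: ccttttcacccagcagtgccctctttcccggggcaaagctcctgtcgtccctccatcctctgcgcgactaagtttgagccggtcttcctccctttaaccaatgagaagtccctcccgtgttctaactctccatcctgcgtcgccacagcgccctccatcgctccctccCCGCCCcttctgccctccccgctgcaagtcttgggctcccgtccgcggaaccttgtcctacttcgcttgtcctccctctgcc
Acan: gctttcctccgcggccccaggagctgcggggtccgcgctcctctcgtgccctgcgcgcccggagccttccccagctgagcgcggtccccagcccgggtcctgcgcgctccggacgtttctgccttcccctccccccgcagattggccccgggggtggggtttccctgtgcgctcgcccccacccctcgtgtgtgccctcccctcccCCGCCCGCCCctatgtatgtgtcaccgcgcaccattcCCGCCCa

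The GC box, which transcription factors of the Sp family bind, occurred once in the Bcan window and 3 times in the Acan window, where 2 of the matches overlap. These windows held 16 and 26 CG dinucleotides, against a median of 6 in the 32851 windows of all genes. The GC box was found in 32.7% of all windows and in those of 6 of the 9 genes with an entry (Acan, Bcan, Ncan, Vcan, Tnc and Ptprz1). Here and below, a gene was counted where any of its windows matched, whereas the percentages are per window. The TATA box TATAAA was found in 12.4% of all windows and in those of Ncan and Tnc. Because interferon response genes were higher in the depleted mice, the core of the interferon-stimulated response element was also searched (GAAA, any 2 bases, then GAAA, on either strand). It was found in 2.98% of all windows and in 0 of the 9. These matches describe the letters of the windows and do not show that a factor binds there.

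The table holds FPKM values (fragments scaled to transcript length and library size), which compare genes per length, and the spacing of low values put about 14.5 to 20.4 M fragments behind each control mouse and 7.16 to 13.7 M behind each depleted mouse. Differences were tested with limma on log2(FPKM + 1) over the 14385 genes whose mean reached 0.5 FPKM, among them all 10 genes here, and a gene was called at an adjusted p-value under 0.1. The study describes the mice as matched for sex, which the labels do not give: Xist was at 4.74 FPKM in A3 and from 30.9 to 46.7 FPKM in the others, and the FPKM of 4 Y-linked genes summed to 5.56 in A4 and to at most 0.16 in the others. A4 also stood apart in a list of 10 interferon response genes, whose FPKM summed to 427.9 there, to 77.0 in A5, to 74.9 in A6, and to between 23.8 and 36.5 in control mice. Cortical excitatory neurons were well represented, with the vesicular glutamate transporter Slc17a7 between 325.0 and 383.3 FPKM, while Ttr, a transcript of the choroid plexus, ran from 160.1 to 313.7 FPKM in control and from 40.9 to 64.3 FPKM in depleted mice.

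In control mice the genes spanned from Bcan at 85.4 ± 4.59 FPKM (SD, n = 3) to Acan at 0.553 ± 0.0643 FPKM (SD, n = 3). The order by mean FPKM was Bcan, Hapln4, Ncan, Ptprz1, Hapln2, Tnr, Hapln1, Vcan, Tnc and Acan, and it was the same in depleted mice. Within the control group, Hapln2 and Tnr were the neighbours in this order whose mice overlapped. Within the depleted group, Hapln1 and Vcan and also Tnc and Acan overlapped as well.

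**Figure D1:**
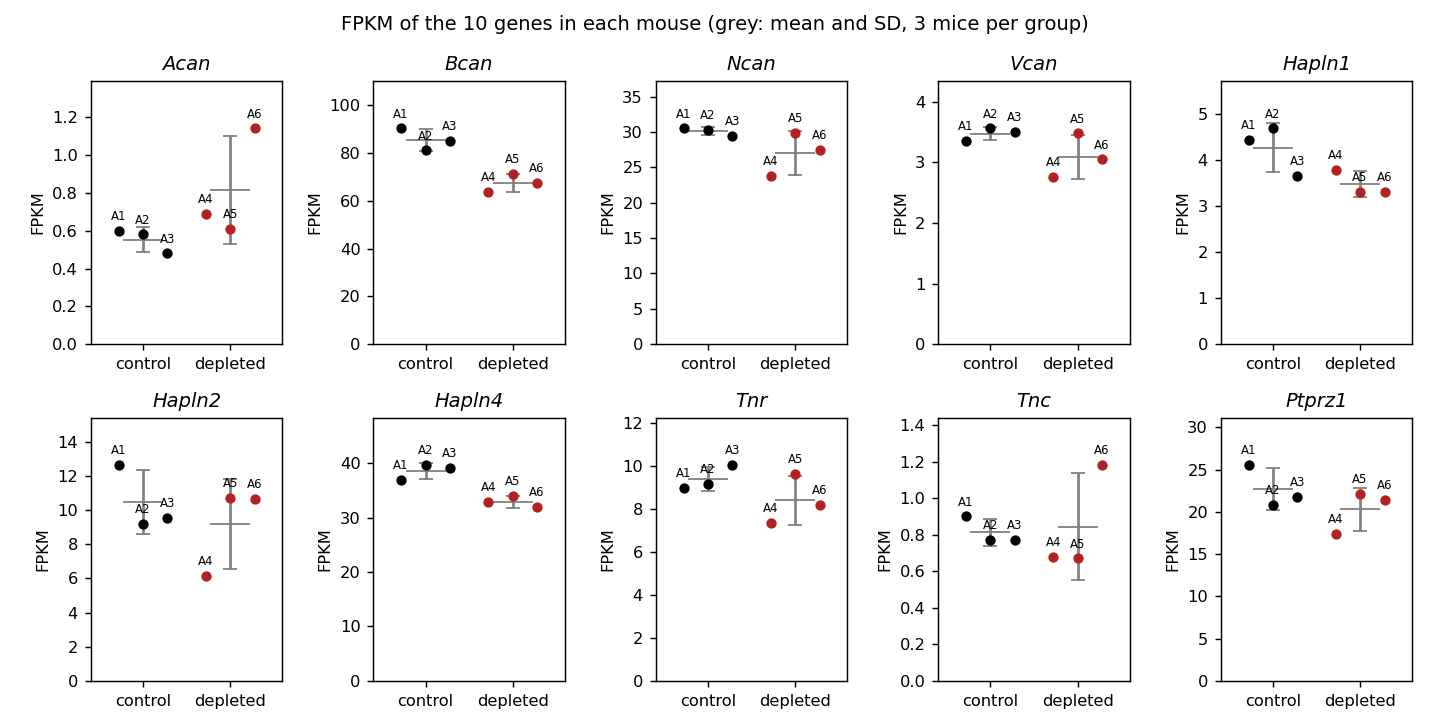
FPKM of each gene in each mouse, with an axis from 0 for every gene; black points are control mice, red points depleted mice, and grey bars the mean ± SD of 3 mice. Bcan and Hapln4 were lower in every depleted mouse than in any control mouse, Acan was higher, and A4 was the lowest of the 6 mice in 6 genes.

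None of the 10 genes was called, against 0.0278% of the genes tested, that is 4 of 14385. The study's own test, on raw counts at the same threshold, called many more genes. Few calls here therefore do not show that little changed. At an unadjusted p-value under 0.05 in limma, 2 of the 10 genes were found, Bcan and Hapln4, both lower in depleted mice, where 5.74% of all genes tested were lower and 4.79% higher at that level. Groups did not overlap for 2 genes that were lower, against 9.38% of all genes tested, and for 1 gene that was higher, Acan, against 8.21%. The median log2 fold change (depleted minus control) of the 10 genes was -0.16, or -0.069 without A4, and that of all genes tested was -0.0085.

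Brevican, encoded by Bcan, is the most abundant lectican of the adult brain and is found both in nets and around synapses. Bcan stood at 90.2, 81.0 and 85.0 FPKM in A1 to A3, and at 63.6, 71.1 and 67.5 FPKM in A4 to A6, in that order here and for each gene that follows. Every depleted mouse was below every control mouse, and the highest depleted mouse, A5, was separated from the lowest control mouse, A2, by more than the SD of either group. The depleted mean of 67.4 ± 3.76 FPKM differed by -21.1% from the control mean of 85.4 ± 4.59 FPKM (SD, n = 3 each), a log2 fold change of -0.34 (95% interval from -0.51 to -0.16, adjusted p = 0.337 in limma). With 1 mouse left out at a time it stayed between -0.38 and -0.30, so that no single mouse set it.

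The size of this difference depended on whether libraries were corrected for base composition. The longest annotated transcript of Bcan is 60.7% G and C, above 96.7% of the genes tested, whose median is 49.8%. After a correction of each library for GC content, the log2 fold change of Bcan was -0.21 (adjusted p = 0.495 in limma, within a range from 0.194 to 0.892 over all alternatives). The same correction changed the share of lower genes among all genes at an unadjusted p-value under 0.05 from 54.5% to 44.1%.

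Neurocan, encoded by Ncan, is a lectican of the developing and adult matrix that is cleaved as the brain matures. Ncan stood at 30.5, 30.4 and 29.5 FPKM in the control mice, all close together, and at 23.8, 29.9 and 27.5 FPKM in A4 to A6. A4 and A6 lay below the control mice and A5 lay among them. This gave a log2 fold change of -0.15 (95% interval from -0.37 to 0.06, adjusted p = 0.593 in limma), and -0.068 without A4.

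Versican, encoded by Vcan, is made by oligodendrocyte precursors and in connective tissue, and an isoform of it gathers at nodes of Ranvier. Vcan was at 3.36, 3.56 and 3.51 FPKM in A1 to A3 and 2.76, 3.48 and 3.05 FPKM in A4 to A6. As for Ncan, A4 and A6 were below every control mouse and A5 was within their range. Its log2 fold change was -0.13 (95% interval from -0.41 to 0.15, adjusted p = 0.723 in limma), or -0.071 without A4 and -0.20 without A5.

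Aggrecan, encoded by Acan, is the lectican most closely tied to the nets of cortical interneurons. Acan was at 0.60, 0.58 and 0.48 FPKM in A1 to A3 and 0.69, 0.61 and 1.14 FPKM in A4 to A6. The groups did not overlap, but A5 lay only 0.01 FPKM above A1, the smallest step that the table can show, and A6 was well above the other 5 mice. At this level few fragments stand behind a value, about 32 in A5 and 94 in A6 for the longest annotated transcript, so that counting alone gives the value of A5 an error of about 17.7%. The log2 fold change was 0.21 (95% interval from -0.18 to 0.60, adjusted p = 0.683 in limma). It was 0.088 without A6, and 0.44 with a pseudocount of 0.1 in place of 1, since adding 1 to values this low understates a change.

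The FPKM of the 4 lecticans together was 124.6, 115.5 and 118.4 in the control mice and 90.8, 105.1 and 99.2 in A4, A5 and A6. The groups did not overlap, and their means differed by -17.7%, most of which is Bcan. Bcan made up from 70.1% to 72.4% of this sum in control mice and from 67.6% to 70.0% in depleted mice, a difference between the nearest mice that is smaller than the spread within either group.

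**Figure D2:**
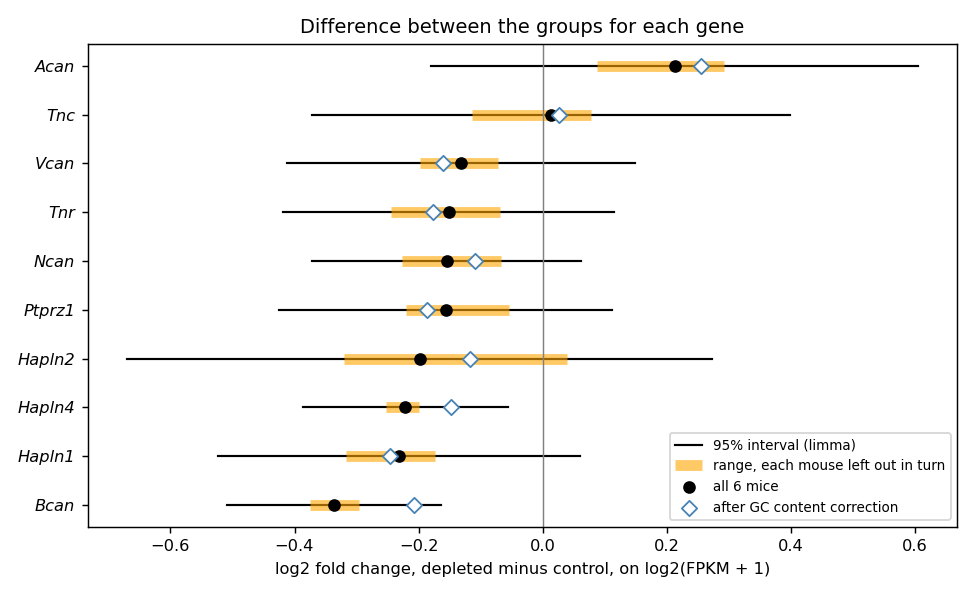
Log2 fold change of each gene between depleted and control mice on log2(FPKM + 1): black points are the values from all 6 mice with their 95% intervals from limma, orange bars the range with each mouse left out in turn, and open diamonds the values after GC content correction. The intervals of Bcan and Hapln4 lie below 0, and the diamonds of both lie nearer to 0 than their points.

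Hapln4, also called Bral2, is the link protein that accompanies brevican, above all at inhibitory synapses on projection neurons of the brainstem and cerebellum. Hapln4 was at 36.9, 39.6 and 39.1 FPKM in A1 to A3 and 32.8, 34.0 and 31.9 FPKM in A4 to A6. All depleted mice were below all control mice, and A6 was the lowest of the 6. The depleted mean of 32.9 ± 1.07 FPKM differed by -14.6% from the control mean of 38.5 ± 1.48 FPKM (SD, n = 3 each), a log2 fold change of -0.22 (95% interval from -0.39 to -0.06, adjusted p = 0.394 in limma). After GC content correction the log2 fold change was -0.15, and the gene was no longer among those with an unadjusted p-value under 0.05.

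Hapln1, the cartilage link protein, stabilizes aggrecan on hyaluronan and is switched on in neurons as nets form. Hapln1 was at 4.44, 4.68 and 3.66 FPKM in A1 to A3 and 3.79, 3.31 and 3.31 FPKM in A4 to A6. A5 and A6 were below every control mouse, whereas A4 was above A3, so that the groups overlapped by these 2 mice alone. The log2 fold change was -0.23 (95% interval from -0.52 to 0.06, adjusted p = 0.556 in limma). It differed from most of the other genes in that A4 was not its lowest mouse, and leaving out A4 gave -0.28.

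Hapln2, also called Bral1, is made by myelinating oligodendrocytes and is placed at nodes of Ranvier rather than in nets. Hapln2 was at 12.6, 9.21 and 9.56 FPKM in A1 to A3 and 6.13, 10.7 and 10.6 FPKM in A4 to A6. A4 was below all other mice, and A5 and A6 lay between A1 and A3. The log2 fold change of -0.20 (95% interval from -0.67 to 0.27, adjusted p = 0.755 in limma) therefore rests on A4 and A1: it was 0.040 without A4 and -0.067 without A1.

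The 3 link proteins together were at 53.9, 53.5 and 52.4 FPKM in control mice, a narrow range, against 42.8, 48.1 and 45.8 FPKM in A4 to A6. Their groups did not overlap, with means that differed by -14.5%, and Hapln4 accounted for most of the sum in every mouse.

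Tenascin-R, encoded by Tnr, is made by oligodendrocyte lineage cells and some neurons, and it cross-links lecticans through their C-terminal domains. Tnr was at 8.95, 9.16 and 10.02 FPKM in A1 to A3 and 7.33, 9.62 and 8.19 FPKM in A4 to A6. A4 and A6 were below the control mice and A5 was above A1 and A2. Its log2 fold change was -0.15 (95% interval from -0.42 to 0.12, adjusted p = 0.666 in limma), or -0.069 without A4 and -0.24 without A5.

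Tenascin-C, encoded by Tnc, is abundant in development, is kept up in the adult by radial glia and some astrocytes, and is known to return in injured tissue. Tnc was at 0.90, 0.77 and 0.77 FPKM in A1 to A3 and 0.68, 0.67 and 1.18 FPKM in A4 to A6. A4 and A5 were the lowest of the 6 mice and A6 was the highest, as A6 also was for Acan. Its log2 fold change was 0.01 (95% interval from -0.37 to 0.40, adjusted p = 0.985 in limma), and it ran from -0.11 without A6 to 0.079 without A5. The interval leaves room for a change of either sign at this depth, about 34 fragments in A5 and 94 in A6.

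Ptprz1 encodes a receptor-type tyrosine phosphatase of astrocytes and oligodendrocyte precursors, whose secreted form, phosphacan, binds tenascins and is part of the net. Ptprz1 was at 25.5, 20.9 and 21.8 FPKM in A1 to A3 and 17.4, 22.1 and 21.4 FPKM in A4 to A6. A4 alone was below the control mice. Its log2 fold change was -0.16 (95% interval from -0.42 to 0.11, adjusted p = 0.658 in limma), and it was -0.054 without A4 and -0.074 without A1.

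**Figure D3:**
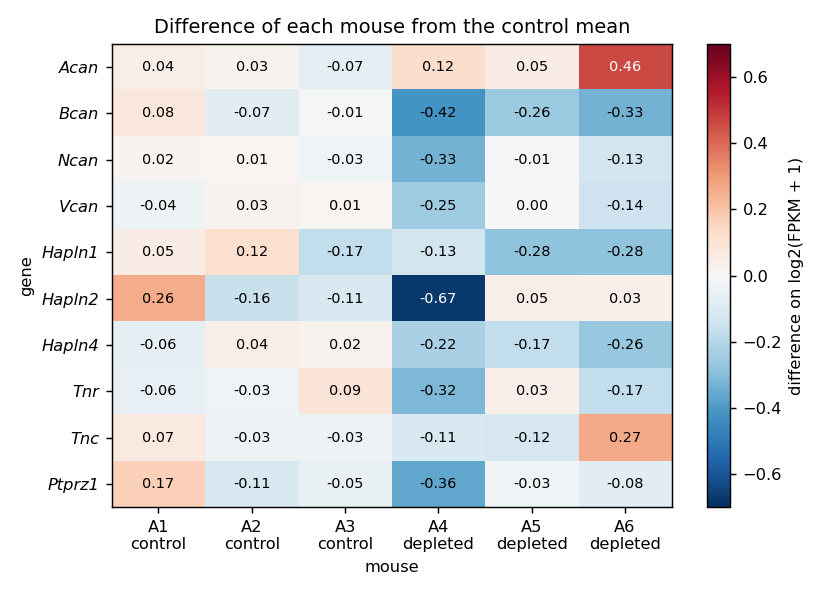
Difference of each mouse from the control mean of the gene, on log2(FPKM + 1), for 10 genes (rows) and 6 mice (columns); blue is below and red above the control mean. A4 is below the control mean in 9 genes, from -0.67 in Hapln2 to -0.11 in Tnc, and A6 holds the strongest red, in Acan.

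Depleted mice differed among themselves over these genes. The median difference from the control mean was -0.28 in A4, -0.14 in A6 and -0.020 in A5 on the log2(FPKM + 1) scale, whereas over all genes tested it lay between -0.0097 and -0.0010 in the same mice. In A4, 9 of the 10 genes were below the control mean, and 6 of them were at their lowest there (Bcan, Ncan, Vcan, Hapln2, Tnr and Ptprz1). In A5, Hapln1 was at -0.28, Bcan at -0.26, Hapln4 at -0.17 and Tnc at -0.12, while Ncan, Vcan, Tnr and Ptprz1 lay between -0.030 and 0.035, and Hapln2 and Acan were at 0.05. A5 is the library with the fewest fragments and A4 the one with the highest interferon response genes, and the part of either in these values was not tested.

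**Figure D4:**
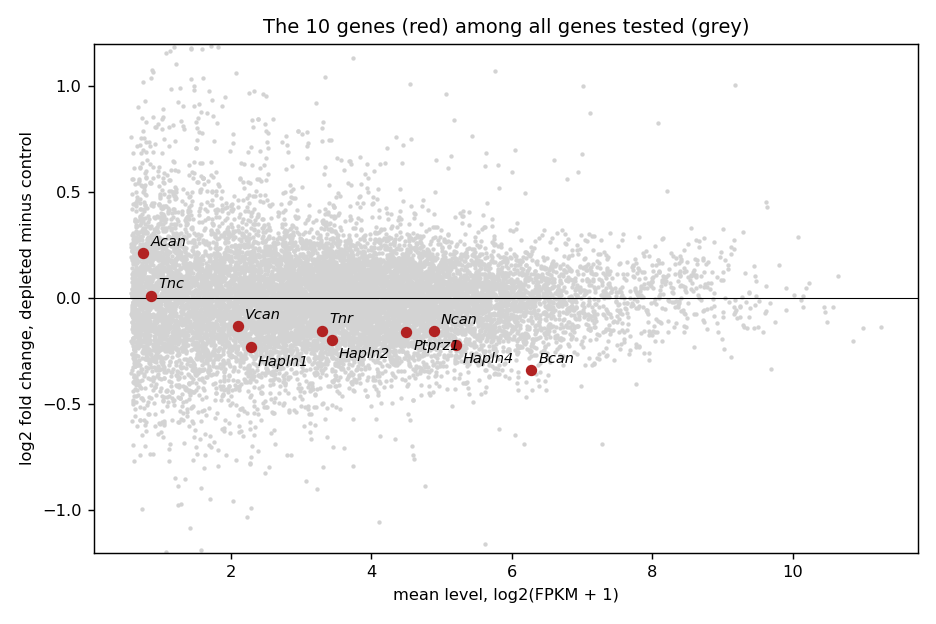
Log2 fold change (depleted minus control) against mean level on log2(FPKM + 1), for the 14385 genes tested in grey and the 10 genes in red; 61 genes lie beyond the limits of 1.2. All 10 genes lie within the cloud of other genes, from Bcan at -0.34 to Acan at 0.21.

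The enzymes that make the sugar chains of these proteoglycans were compared as a list. Of 23 genes for chondroitin sulfate synthesis and sulfation, 22 were tested, 18 had a log2 fold change below 0, where 52.0% of all genes tested were below 0, and 0 were called, with a median of -0.12. Groups did not overlap for 7 of them, all lower in depleted mice, as for 9.38% of all genes tested. At an unadjusted p-value under 0.05 there were 4, all lower, as for 5.74% of all genes tested, and these shares are also the background of the lists that follow. Values of this list and of those that follow are without the GC content correction described for Bcan. Its effect on them was not tested. The 4 were chosen for naming after their values were seen: Xylt2, B3galt6 and B3gat3, enzymes of the linker that joins the chain to its core protein, and Chpf, a subunit of the chondroitin polymerase. B3gat3 was at 81.1, 81.9 and 83.3 FPKM in A1 to A3 and 67.8, 71.5 and 71.1 FPKM in A4 to A6, a log2 fold change of -0.22 (adjusted p = 0.378 in limma). The smallest value of the list was that of Papss2, an enzyme that makes the sulfate donor (log2 fold change of -0.32, adjusted p = 0.486 in limma), and the largest that of its paralog Papss1, at 0.040.

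Hyaluronan, the backbone of the net, is made and broken down by another set of enzymes. Of 11 genes for its synthesis and turnover, 9 were tested, 5 above and 4 below 0, with a median log2 fold change of 0.042, or -0.019 without A4, and 0 at an unadjusted p-value under 0.05. Cd44, a hyaluronan receptor, had the largest log2 fold change, at 0.25, and Hyal1, a lysosomal hyaluronidase, the smallest, at -0.44 (adjusted p = 0.649 and 0.492 in limma).

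Among 21 tested genes for matrix proteases and their inhibitors, 0 were called, and 15 had a log2 fold change below 0. The gene with the largest value was Ctss, which encodes cathepsin S, a protease released by microglia and macrophages that can cleave matrix proteins. Ctss was at 37.1, 29.5 and 33.2 FPKM in A1 to A3 and 92.9, 48.8 and 78.5 FPKM in A4 to A6, a log2 fold change of 1.07 (adjusted p = 0.293 in limma). Each depleted mouse exceeded each control mouse for Ctss, and A4 was the highest. Adamts4, an aggrecanase that cuts lecticans and is made by oligodendrocytes, had the smallest value. It was at 4.55, 4.85 and 4.22 FPKM in A1 to A3 and 3.08, 3.12 and 3.74 FPKM in A4 to A6, a log2 fold change of -0.36 (adjusted p = 0.396 in limma). Adamts20 and Mmp15, lower, and Timp2, higher, were the other genes with an unadjusted p-value under 0.05, named after their values were seen.

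All 20 genes for receptors and binding partners of the nets were tested, with 0 called, 15 below 0 and a median log2 fold change of -0.10, or -0.035 without A4. Ptn and Mdk, the growth factors pleiotrophin and midkine that bind the chondroitin sulfate of phosphacan, and Rtn4r, the Nogo receptor, had an unadjusted p-value under 0.05 and were named after their values were seen. Rtn4r was at 44.8, 46.9 and 42.8 FPKM in A1 to A3 and 35.0, 37.7 and 34.6 FPKM in A4 to A6, a log2 fold change of -0.32 (adjusted p = 0.370 in limma). Rtn4rl1 and Rtn4rl2, its paralogs, bounded the log2 fold changes of the list, at 0.22 and -0.40 (adjusted p = 0.668 and 0.561 in limma). Ptn was at 91.4, 88.9 and 99.6 FPKM in A1 to A3 and 55.7, 85.8 and 81.5 FPKM in A4 to A6, lowest in A4 like its receptor Ptprz1. Of the other proteoglycans, link proteins and tenascins, 17 of 19 were tested, with a median of -0.043 and 0 at an unadjusted p-value under 0.05. Gpc6, a glypican that astrocytes secrete, had the largest log2 fold change, at 0.18, and Cspg4, which encodes the proteoglycan NG2 of oligodendrocyte precursors, the smallest, at -0.36 (adjusted p = 0.688 and 0.555 in limma).

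In bulk tissue, fewer cells of a type and less RNA per cell cannot be told apart, and several of these genes come from particular cells. Of 10 markers listed for oligodendrocyte precursors, not all of which are particular to them, 9 had a log2 fold change below 0. The median of these markers was -0.27, or -0.18 without A4, with 0 called. Groups did not overlap for 5 of the markers, all lower, against 9.38% of all genes tested. Their summed FPKM ran from 117.9 to 135.9 in control mice and from 90.6 to 108.9 in depleted mice, lowest in A4. All 12 markers of mature oligodendrocytes were below 0, with a median of -0.24, or -0.21 without A4, and 0 called. For 6 of them the groups did not overlap, all lower, against 9.38% of all genes tested. Their sums ran from 3113 to 3391 FPKM in control and from 2739 to 2836 FPKM in depleted mice. None of the markers in either list was at 0 in every mouse. The part of these cells in the values of Bcan, Vcan, Hapln2, Tnr and Ptprz1 was not tested.

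Markers of the neurons that nets surround were compared next. Of 12 markers of parvalbumin interneurons, 8 were below 0, with a median log2 fold change of -0.093, or -0.014 without A4, and with 0 at an unadjusted p-value under 0.05. Groups overlapped for 11 of them, and Kcnc1, a potassium channel of fast-spiking cells named after its values were seen, was lower in every depleted mouse (28.2, 38.3 and 40.3 FPKM) than in any control mouse (41.5 to 43.0 FPKM). Pvalb itself was at 58.2, 65.8 and 61.9 FPKM in A1 to A3 and 52.0, 64.5 and 80.3 FPKM in A4 to A6. It was highest in A6, the mouse in which Acan was also highest. Summed FPKM of this list ranged from 346.8 to 353.3 among control mice. A4 lay below them at 306.7, while A5 at 356.3 and A6 at 358.7 lay above. These sums weigh abundant genes most, among them Gad1, Gad2 and Slc32a1, which are not particular to parvalbumin interneurons. Over the list, the median difference from the control mean on log2(FPKM + 1) spanned -0.0060 to 0.038 among control mice. It was -0.40 for A4, 0.067 for A5 and -0.034 for A6, so that by this measure A5 alone lay above the control mice.

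The 12 astrocyte markers had a median of -0.12, with 8 below 0 and with Gfap as the largest value (log2 fold change of 1.00, adjusted p = 0.396 in limma), and their sums overlapped, from 1413 to 1576 FPKM in control and from 1408 to 1536 FPKM in depleted mice. That overlap came from Gfap: without it, a sum taken after its values were seen, the other 11 markers were from 1349 to 1488 FPKM in control and from 1236 to 1326 FPKM in depleted mice, which do not overlap. Groups did not overlap for 3 markers that were lower in depleted mice, Aldoc, Atp1b2 and Gja1, and for 2 that were higher, Gfap and Sox9. These were named after their values were seen, and the shares over all genes tested were 9.38% and 8.21%. Ncan, Bcan and Ptprz1 are also made by astrocytes. Of 11 reactive astrocyte markers 11 were above 0, with a median of 0.54, or 0.12 without A4. Of the 6 layer IV neuron markers 5 were below 0, with a median of -0.32, or -0.15 without A4, and of the 8 thalamic markers 7 were, with a median of -0.21, or -0.098 without A4. The 15 microglia markers summed to between 160.5 and 192.8 FPKM in control mice and to 251.7, 178.1 and 223.5 FPKM in A4, A5 and A6. The choroid plexus markers summed to between 175.0 and 329.8 FPKM in control mice and to between 47.7 and 74.1 FPKM in depleted mice, lowest in A5. Medians were -0.063 for pan-neuronal and pyramidal markers, -0.12 for meningeal markers (-0.20 without A4), -0.081 for striatal markers (0.067 without A4) and 0.12 for endothelial markers. Over all lists other than the net genes, A4 had the lowest median of the 6 mice in 11 of 19, among them the neuronal, astrocyte and oligodendrocyte lineage markers, the chondroitin sulfate enzymes and the receptors. The part of these cell types in the net genes was not tested.

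**Figure D5:**
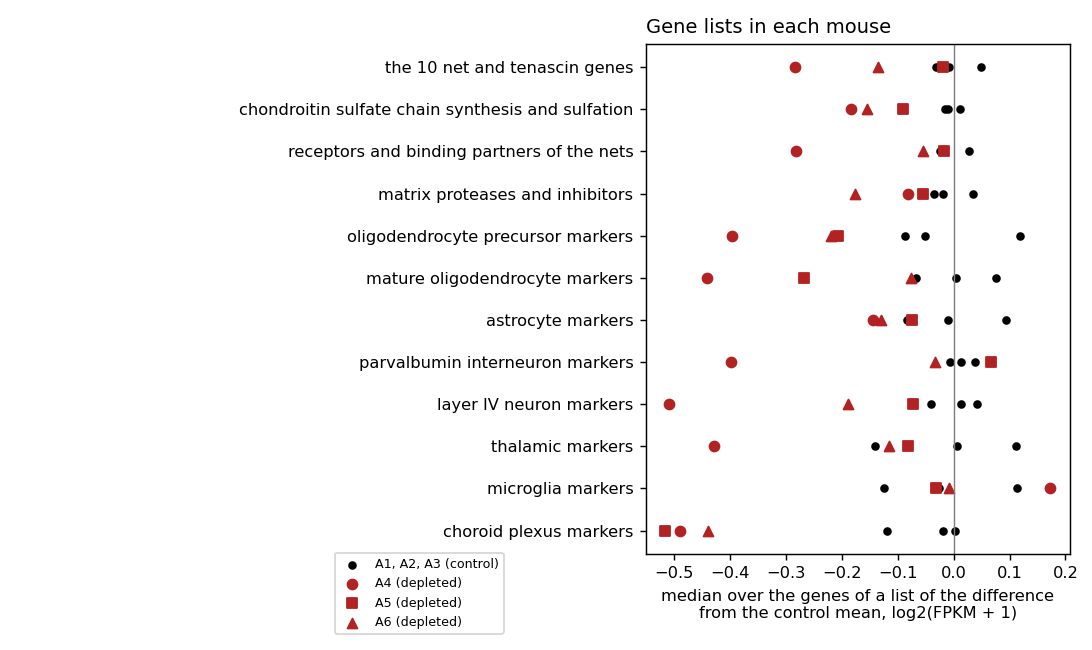
Median over the genes of each list of the difference from the control mean, on log2(FPKM + 1), with control mice as black points and A4, A5 and A6 as red circles, squares and triangles. For the 10 net and tenascin genes A4 is at -0.28, A6 at -0.14 and A5 at -0.020, and A4 is the lowest mouse for most of the other lists too.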

How the data were processed

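RNA from brain cortex of 6 mice was measured, with 1 poly(A)-selected library per mouse and 75 bp paired-end reads. The authors aligned reads with TopHat, quantified known transcripts with RSEM and scaled libraries with TMM factors, and they deposited FPKM values rounded to 2 decimals. The submitters' processing notes name mm9 and DESeq without saying where each was used, and tool versions and annotation are not given in the sources used here. Raw counts were not used here, so the study's count test was replaced by limma 3.58.1 (R 4.3.3) on log2(FPKM + 1), with a variance trend, Benjamini-Hochberg adjustment over all genes whose mean reached 0.5 FPKM, and the study's threshold of 0.1. The fit held the group alone. Labels do not say whether mice shared a litter. With 3 mice per group, the smallest p-value of an exact two-sided permutation test is 0.1.

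The members and lists were chosen with earlier results of these data known. Genes named are the 10 members, the largest and smallest log2 fold change of each list, and others where the text says so. Fragments per mouse were estimated from the spacing of low values in 1813 genes with a single GENCODE M21 transcript of 400 to 1500 bases. GC content was that of the longest GENCODE M21 transcript, matched by symbol, and was available for 99.1% of the genes tested; for the correction, a loess curve of each mouse's difference from the mean on GC content was subtracted. The limma fit was tested on simulated mice, where it called 86% of the genes changed by 1 on the log2 scale. Smaller changes, such as those of the 10 members, were not simulated. The depth estimate was tested on libraries simulated with the same annotated transcript lengths that it assumes. Errors from other transcript lengths, fractional counts or TMM scaling were not covered. Promoters came from RefSeq (GRCm38.p6) and matched 9 members. Python 3.11.15, pandas 2.3.3 and matplotlib 3.10.9 were used for tables and plots.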

Additional observations from a re-analysis of the deposited data

How the results depend on the processing

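No member was called in the fit of all 6 mice or under any alternative, and the lowest adjusted p-value of a member, that of Bcan in limma, was 0.194. The values were taken as TPM, scaled by median of ratios, by quantiles or for GC content, with a pseudocount of 0.1, without a filter or with one at 1 FPKM (which leaves out Acan and Tnc). The limma fit was also run with array weights, without the variance trend and in its robust form, at a threshold of 0.05 and with each mouse left out. The number of genes called among all genes was 4 in the main fit, 20 with array weights, 2 without the variance trend, and 3 without a filter or in the robust form. It was 4 under the other alternatives that kept all 6 mice, and from 2 (without A1) to 29 (without A5) with 1 mouse left out. The median log2 fold change of the members stayed below 0, from -0.18 to -0.11 under the other alternatives and from -0.22 to -0.069 with 1 mouse left out. The log2 fold change of Hapln2 ran from -0.32 to 0.040 with 1 mouse left out and changed sign without A4. That of Tnc ran from -0.11 to 0.079 and changed sign without A2, without A3 (-0.0040 for each) and without A6. The cause was not tested. The FPKM of Acan and Tnc rest on 32 and 34 fragments in A5, and the deepest library was 2.85 times the shallowest. No paired analysis was possible because the labels number the mice of the groups differently.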
